A study of Mus musculus with 2 samples.

Results

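Keratins are the intermediate filament proteins of epithelia, and 8 of their genes are described here in single cells from regenerating mouse mammary gland: Krt5, Krt14, Krt15 and Krt17, which are typical of the basal layer, and Krt7, Krt8, Krt18 and Krt19, which are typical of the luminal layer. They were chosen by name, 8 of 27998 gene rows, and were followed over the cells in which no UMI (unique molecular identifier, 1 counted mRNA molecule) of Ptprc, the gene of the immune cell antigen CD45, was found. These were 258 of 354 cells, 195 of 268 in the Ctrl library and 63 of 86 in the Fgfr2 KO library. For both libraries, donor basal cells with the R26R mT/mG reporter were exposed to an adenovirus that carries Cre and GFP and then combined with Fgfr2+/+ luminal cells that carried the same reporter in its red, not recombined form. In the Ctrl library (genotype WT) the basal cells were Fgfr2+/+, and in the Fgfr2 KO library they were Fgfr2∆/∆. The mixtures were placed in cleared fat pads of female nude mice aged 3 weeks, which lack T cells but keep other immune cells, and were dissected after 5 days, sorted by FACS and profiled on the 10x Genomics platform; how many animals were pooled was not stated. Each group had 1 library. No test between groups was therefore possible. The 95% intervals of levels and ratios below are for the counting error of UMIs only, and do not cover the spread between animals or between cells. Those of shares of cells take each cell as an independent draw, though cells of 1 library are not replicates. They do not cover the spread between animals either, and overlap of intervals is no test between the libraries.

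A keratin filament is built from pairs of a type I and a type II keratin, and each partner is unstable without the other. In the mammary gland, basal and myoepithelial cells are known for the pair of Krt5 (type II) and Krt14 (type I), and luminal cells for the pair of Krt8 (type II) and Krt18 (type I). Krt7 (type II) and Krt19 (type I) are further luminal keratins, Krt17 (type I) is known from basal cells and from stressed or regenerating epithelium, and Krt15 (type I) from basal and progenitor cells. Cells that hold both pairs are well known from the embryonic gland, and such co-expression is often read as a sign of an immature or plastic state.

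In the GENCODE M21 annotation of GRCm38 (mm10), the type I genes Krt15 (chr11:100131758-100135928), Krt19 (chr11:100140810-100148665), Krt14 (chr11:100203162-100207548) and Krt17 (chr11:100256217-100261029) all lie on the minus strand of chromosome 11. The type II genes Krt7 (chr15:101411043-101430313, plus strand), Krt5 (chr15:101707070-101712898, minus strand) and Krt8 (chr15:101996698-102004482, minus strand) lie on chromosome 15. Krt18 (chr15:102028180-102032027, plus strand) is the only type I gene in that cluster, and it stands back to back with Krt8, its filament partner, 23697 bases away. The 100 bases before the RefSeq start site (GRCm38.p6, gene strand, 5′ to 3′) are shown for Krt5, Krt7, Krt8 and Krt18, to set Krt7, the keratin with the lowest ratio between the libraries, beside the luminal pair and Krt5 of the basal pair. Capitals mark the letters ATAAAA, a variant of the motif known as the TATA box. They also mark CCGCCC, the GC box as it reads from the other strand.
Krt5 (chr15:101712906-101713005, minus strand): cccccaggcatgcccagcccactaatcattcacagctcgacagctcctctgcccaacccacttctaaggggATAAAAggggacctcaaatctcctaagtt
Krt7 (chr15:101412303-101412402, plus strand): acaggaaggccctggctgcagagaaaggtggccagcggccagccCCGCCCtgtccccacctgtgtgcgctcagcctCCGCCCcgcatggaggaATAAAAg
Krt8 (chr15:102004343-102004442, minus strand): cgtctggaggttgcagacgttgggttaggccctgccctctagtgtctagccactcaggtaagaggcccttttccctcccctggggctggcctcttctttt
Krt18 (chr15:102028116-102028215, plus strand): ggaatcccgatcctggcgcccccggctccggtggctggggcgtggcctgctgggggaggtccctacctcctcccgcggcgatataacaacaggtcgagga

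Both strands of these windows were searched for the TATA box TATAAA, its variant ATAAAA (as above), the GC box GGGCGG and the AP-1 motif TGANTCA. The variant ATAAAA lay 29 to 24 bases before the start of Krt5 and 7 to 2 bases before that of Krt7, and Krt7 also held GGGCGG at 56 to 51 and at 24 to 19 bases before its start, both on the other strand. Of 32851 RefSeq windows of the same length, 7.07% held ATAAAA, 24.7% GGGCGG, 5.56% TATAAA and 2.73% TGANTCA. The windows of Krt8 and Krt18 held none of the 4 motifs in these exact letters. RefSeq and GENCODE place the starts differently: the windows of Krt7 and Krt8 lie inside the GENCODE genes, that of Krt18 overlaps the GENCODE start, and only that of Krt5 lies wholly before it. Of the 8 keratins, 5 had a row in the promoter table, and that of Krt14, also inside its GENCODE gene, is not shown.

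The Ctrl cells with no Ptprc UMI had a median of 18173 UMIs and the Fgfr2 KO cells one of 13630, and no barcode occurred in both libraries. Fgfr2 itself had 36.8 CPM (UMIs scaled to 1000000 per set of cells; 31.2 to 43.1) in the Ctrl cells and 34.6 CPM (24.0 to 48.4) in the Fgfr2 KO cells. This level does not check the labels, since the luminal cells of both libraries were wild type and the counted transcript end may lie outside the deleted part. Keratin RNA also floated free in both libraries. Immune cells, which should lack keratins, were used to measure it (at least 1 Ptprc UMI, at least 5 UMIs over 8 immune markers and no Epcam UMI): in these reference cells the 8 keratins made up 0.0641% of UMIs in Ctrl (48 cells, median 10484.5 UMIs) and 0.0294% in Fgfr2 KO (15 cells, median 6346 UMIs), against 0.705% and 0.514% in the cells with no Ptprc UMI. Immune-like or fibroblast-like cells (over 20 UMIs per 10000 of either marker list) remained among the latter, 31 of 195 (Ctrl) and 22 of 63 (Fgfr2 KO). The 8 immune markers summed to 1174 and 1613 CPM there, with Cd3e at 0 in both libraries, and the 6 fibroblast markers to 1910 and 400.4 CPM. Endothelial (44.9 and 13.2 CPM), pericyte and muscle (19.2 and 43.8), adipocyte (27.1 and 28.5, with Adipoq and Plin1 at 0) and skin keratinocyte (38.0 and 30.6) markers summed to little. The log2 ratios of the 8 keratins and both pairs over all these cells, and those of Krt7, Krt17 and Krt19 by class, were also computed without them.

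Among the basal keratins, Krt14 stood at 1042 CPM (1012 to 1074) in Ctrl and at 1069 CPM (1005 to 1135) in Fgfr2 KO. Krt5, its partner, stood at 320.1 CPM (303.2 to 337.7) and 280.1 CPM (248.0 to 315.3). Both genes of the basal pair therefore lay close together between the libraries, and their sum had a log2 ratio of Fgfr2 KO over Ctrl of -0.01 (-0.10 to 0.07). Per cell, Krt14 ranged from 0 to 82.9 UMIs per 10000 in Ctrl with a median of 3.02, and from 0 to 63.8 with a median of 0.929 in Fgfr2 KO. Krt17 had 762.2 CPM (736.1 to 789.1) in Ctrl and 548.1 CPM (502.7 to 596.4) in Fgfr2 KO. One Fgfr2 KO cell gave 164 of the 538 Krt17 UMIs there, and the log2 ratio of -0.48 (-0.61 to -0.34) was -0.85 without the highest cell of each library and -0.94 without cells that Scrublet called doublets. Krt15 was sparse, with 101 UMIs in 31 of 195 Ctrl cells and 21 UMIs in 7 of 63 Fgfr2 KO cells, and 1 cell held 61.9% of the latter.

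The luminal keratins were lower in the Fgfr2 KO library, and Krt7 by the widest margin of the 8. Krt8 had 1640.1 CPM (1602 to 1679) in Ctrl and 1123 CPM (1057 to 1191) in Fgfr2 KO, and Krt18 had 1593 CPM (1555 to 1631) and 1198 CPM (1131 to 1268). The summed luminal pair had a log2 ratio of -0.48 (-0.54 to -0.41), an interval that did not overlap that of the basal pair. Krt19 had 1268 CPM (1234 to 1302) and 786.4 CPM (731.9 to 843.9), a log2 ratio of -0.69 (-0.80 to -0.58). Krt7 had 403.7 CPM (384.7 to 423.3) in Ctrl and 115.1 CPM (94.9 to 138.4) in Fgfr2 KO, 3.51-fold lower, with a log2 ratio of -1.81 (-2.10 to -1.53). The highest Ctrl cell held 140 Krt7 UMIs and the highest Fgfr2 KO cell 29. Cells with 10 or more Krt7 UMIs numbered 50 of 195 (Ctrl) and 3 of 63 (Fgfr2 KO).

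**Figure D1:**
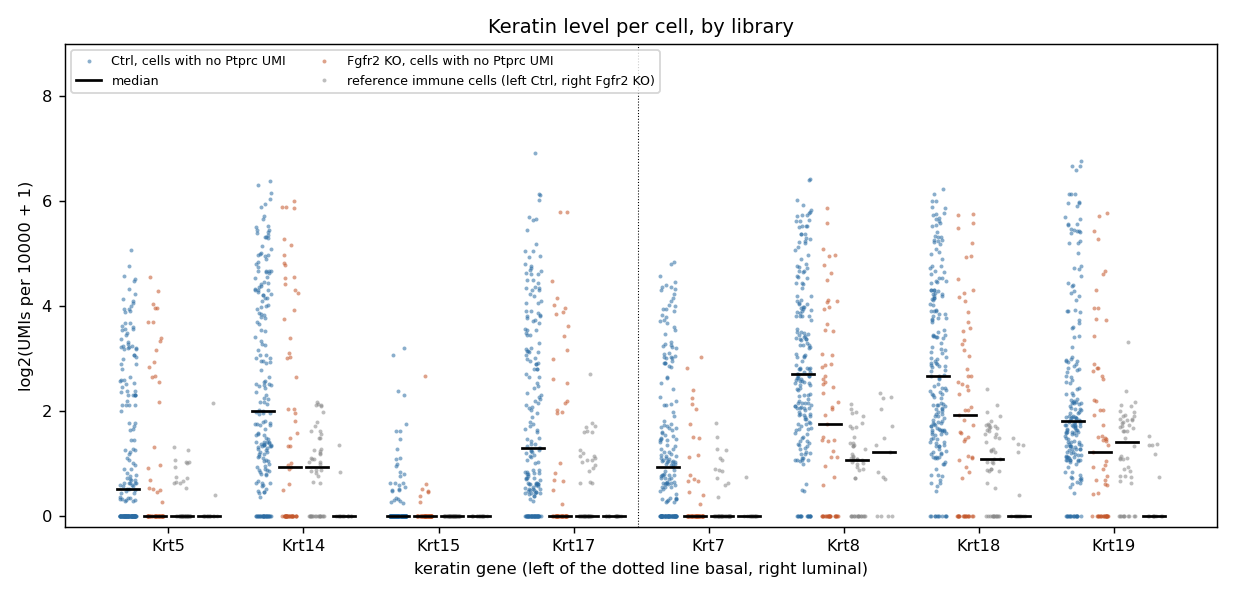
Level of each keratin in every cell, as log2(UMIs per 10000 + 1), with cells with no Ptprc UMI in blue (Ctrl) and orange (Fgfr2 KO), reference immune cells in grey and medians as black bars. The Krt7 points of Fgfr2 KO end at 7.21 UMIs per 10000, while those of Ctrl reach 27.8.

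Krt7 was the 1 keratin of 8 that passed 2-fold. Of 10501 genes with at least 20 UMIs over both libraries, 7.34% were at least 2-fold lower in Fgfr2 KO, 4.1% at least 2-fold higher and 11.4% past 2-fold in either direction, so that the count of 1 in 8 lay near the background, and 1.87% of all genes had a lower ratio than Krt7. The median log2 ratio of all genes was -0.07. Krt7 stayed below a log2 ratio of -1 in all 9 alternatives that changed the cells kept, the scaling or the weights, from -2.47 to -1.11. The value nearest to 0 came with the cells that hold Ptprc UMIs. Among the 8 Fgfr2 KO cells that had both Ptprc and Epcam UMIs, 1 cell gave 76 of 77 Krt7 UMIs and 269 of 271 Krt8 UMIs. Without immune-like and fibroblast-like cells the basal pair had a log2 ratio of 0.13 (0.04 to 0.22). Krt15 also passed 2-fold, at -1.07, when the cell with most Krt15 UMIs was left out of each library.

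**Figure D2:**
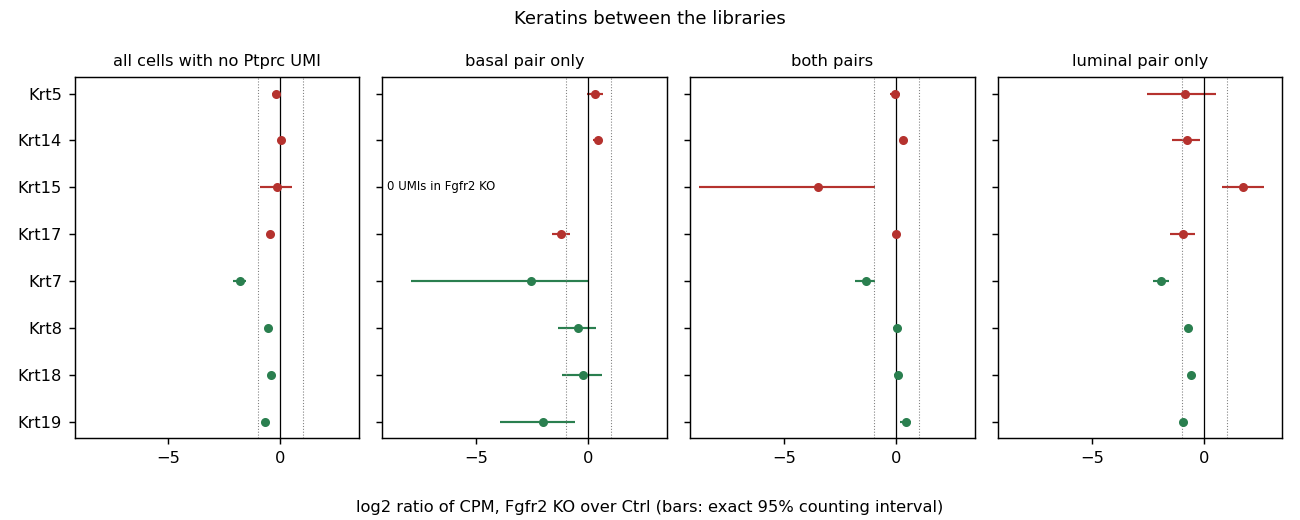
Log2 ratio of CPM, Fgfr2 KO over Ctrl, for each keratin in all cells with no Ptprc UMI and in the classes of cells with the basal pair, both pairs or the luminal pair above background; bars are exact 95% counting intervals, red is basal, green is luminal, and dotted lines mark 2-fold. Krt7 lies left of the dotted line in each panel, at -1.81, -2.58, -1.37 and -1.92.

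The share of cells with a keratin UMI followed depth as well as expression. A Krt7 UMI was present in 68.7% (61.7 to 75.2%) of the Ctrl cells and 28.6% (17.9 to 41.3%) of those from Fgfr2 KO, against 27.1% and 6.67% of the reference immune cells. Cells were then thinned to 5595 UMIs each, and 12 cells of Ctrl and 14 of Fgfr2 KO were too shallow to keep. The Krt7 shares became 47.0% (39.6 to 54.5%) and 20.4% (10.2 to 34.3%), and 11.9% of the 42 reference cells left in Ctrl. These shares are over all cells with no Ptprc UMI, of which more were immune-like or fibroblast-like in Fgfr2 KO. Within the classes described below, the thinned Krt7 shares overlapped in their intervals: 65% (51.6 to 76.9%) in Ctrl and 40% (16.3 to 67.7%) in Fgfr2 KO with the luminal pair only, and 51.3% (39.6 to 63.0%) and 25% (7.27 to 52.4%) with both pairs. The Krt8 share was 92.3% in Ctrl against 68.8% of the reference cells, and 66.7% in Fgfr2 KO against 73.3%, so that the latter share cannot be told from free RNA. The level of Krt8 in Fgfr2 KO did lie apart, at 1123 CPM against 127.2 CPM (72.7 to 206.6) in its reference cells. After thinning the Krt8 share was 89.6% (84.3 to 93.6%) and 65.3% (50.4 to 78.3%), against 50% of 42 and 12.5% of 8 reference cells (0.316 to 52.7%), an interval that overlaps that of Fgfr2 KO. For Krt14 the shares were 85.1% and 55.6% (64.6% and 13.3% of the reference), and after thinning 68.3% (61.0 to 74.97%) and 57.1% (42.2 to 71.2%), where the intervals overlapped. Up to 79.2% of the reference cells held a UMI of a keratin (Krt19 in Ctrl), so that 1 UMI does not show that a cell made the gene. Krt15 had no UMI in the 48 Ctrl reference cells, where a floor of 3 counts allows a share of up to 6.25%, nor in the 15 of Fgfr2 KO (up to 20%). The exact intervals of these shares reach 7.40% and 21.8%, and Krt15 was sparse in all cells.

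To ask which cells held both pairs, a pair was called above background when it had at least 3 UMIs and a rate above the 95th percentile of the reference immune cells of the same library. These limits were 3.41 (basal pair) and 5.29 (luminal pair) UMIs per 10000 in Ctrl and 2.15 and 4.30 in Fgfr2 KO. Of the Ctrl cells, 24 of 195 had the basal pair only, 61 the luminal pair only, 77 both pairs and 33 neither. Of the Fgfr2 KO cells, 7 of 63 had the basal pair only, 15 the luminal pair only, 16 both pairs and 25 neither. Cells with both pairs were 39.5% (32.6 to 46.7%) of all in Ctrl and 25.4% (15.3 to 37.9%) of all in Fgfr2 KO. The immune-like or fibroblast-like cells fell mostly among those with neither pair, 25 of 33 (Ctrl) and 21 of 25 (Fgfr2 KO). Among cells with at least 1 pair above background, those with both made up 47.5% (77 of 162, 39.6 to 55.5%) in Ctrl and 42.1% (16 of 38, 26.3 to 59.2%) in Fgfr2 KO, with overlapping intervals. The limits of Fgfr2 KO were lower and rested on 15 reference cells. With limits from the reference cells of both libraries pooled, cells with both pairs were 42.1% (35.0 to 49.3%) of all in Ctrl and 15.9% (7.88 to 27.3%) of all in Fgfr2 KO, and these intervals did not overlap. Without immune-like and fibroblast-like cells the shares drew nearer, at 46.3% (38.5 to 54.3%) and 39.0% (24.2 to 55.5%), and with only cells that hold an Epcam UMI they were 43.7% (36.2 to 51.4%) and 38.5% (23.4 to 55.4%).

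**Figure D3:**
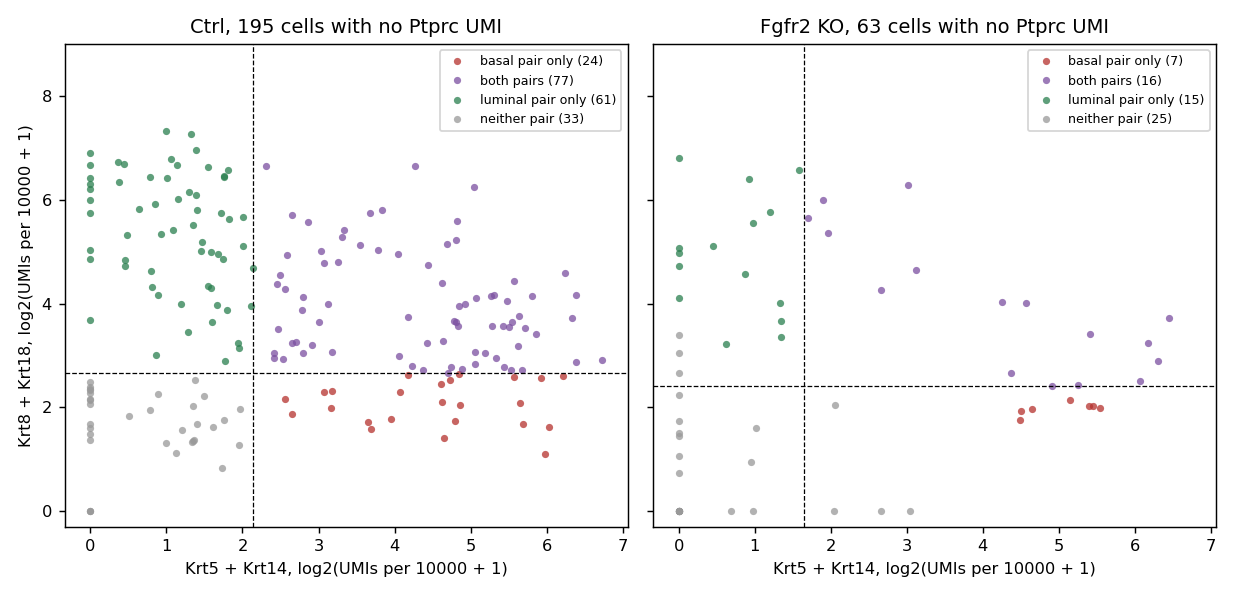
Basal pair (Krt5 + Krt14, x axis) against luminal pair (Krt8 + Krt18, y axis) in every cell with no Ptprc UMI, both as log2(UMIs per 10000 + 1), with the background limits as dashed lines and the 4 classes in colour. The Krt5 and Krt14 share of the 4 genes lies between 20% and 80% in 47 of the 77 Ctrl cells with both pairs and in 5 of the 16 of Fgfr2 KO.

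These classes are ranges on a scale, not cell types. In 26 of the 77 Ctrl cells and 8 of the 16 Fgfr2 KO cells with both pairs, the weaker pair lay within 1.5 times its limit, and it passed 5 times the limit in 5 and 0 cells. At least 10 UMIs of each pair were found in 60 of the 77 and 10 of the 16. The weaker pair was the luminal one in 49 of the 77 Ctrl cells and in 10 of the 16 Fgfr2 KO cells. By UMIs per cell, the share of cells with both pairs among those with any was 40% under 10000 UMIs, 51.6% from 10000 to 20000 and 46.6% above in Ctrl, and 37.5%, 41.7% and 44.4% in Fgfr2 KO. No order with depth could be read in Ctrl, and the bins of Fgfr2 KO held only 8, 12 and 18 such cells. After thinning to 5595 UMIs, with the reference cells of both libraries pooled because only 8 remained in Fgfr2 KO, both pairs were held by 32.2% (25.5 to 39.5%) in Ctrl and by 14.3% (5.94 to 27.2%) in Fgfr2 KO. Scrublet called 0 of the 77 and 1 of the 16 as doublets, and the part of doublets in this class was not tested otherwise.

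The evenness of the pairs was also read from the basal share of each cell's Krt5, Krt14, Krt8 and Krt18 UMIs, with limits of 20% and 80% set after the values had been seen. Of the 162 Ctrl cells with a pair above background, 56 had a basal share between these limits (34.6%, 27.3 to 42.4%). Of the 38 Fgfr2 KO cells, 5 did (13.2%, 4.41 to 28.1%). The rest of the Fgfr2 KO cells divided into 14 above 80% and 19 below 20%. Intermediate cells were thus rarer in the Fgfr2 KO library in these counts, but the intervals touched, and 1 library per group gives no measure of how far such a share varies.

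Ratios between keratins within the classes are set here beside those of the reference immune cells. Counts were not divided by transcript length, so a ratio is compared here between sets of cells and not read as an order of the genes. In the Ctrl reference cells Krt19 had 1.34 UMIs for each of Krt18 (0.974 to 1.85). In Ctrl cells with both pairs this ratio was 0.357 (0.328 to 0.389), and in cells with the luminal pair only it was 0.982 (0.942 to 1.02). Krt18 helped to make the classes, so this ratio is a description. With both pairs, 1 Ctrl cell gave 489 of the 2045 Krt18 UMIs and 7 of the 731 Krt19 UMIs. The ratio without that cell was not computed. The other ratios of Ctrl cells with both pairs lay within the intervals of the reference: 3.28 Krt14 for each of Krt5 against 3.71 (2.14 to 6.76), 0.718 Krt17 for each of Krt14 against 0.683 (0.452 to 1.02), 0.300 Krt7 for each of Krt8 against 0.239 (0.129 to 0.417) and 0.886 Krt18 for each of Krt8 against 1.06 (0.748 to 1.502). The part of free RNA in the weaker pair was not tested. For Krt19 and Krt18 in Fgfr2 KO the ratio was 0.451 (0.375 to 0.541) with both pairs and 0.762 (0.683 to 0.850) with the luminal pair only, while the reference had too few UMIs for a narrow value (1.67, 0.549 to 5.58). In Ctrl cells with the basal pair only, Krt19 stood at 0.984 of Krt18 (0.682 to 1.42).

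Over all cells with no Ptprc UMI, the ratios between the partners of each pair had overlapping intervals in the libraries. Krt14 had 3.26 UMIs for each of Krt5 (3.06 to 3.46) in Ctrl and 3.81 (3.34 to 4.37) in Fgfr2 KO. In cells with both pairs that ratio was 3.28 (3.06 to 3.52) in Ctrl and 4.16 (3.54 to 4.92) in Fgfr2 KO, with intervals that lay just apart. Only 16 Fgfr2 KO cells stand behind the latter, and 1 of them held 52 Krt14 UMIs and 0 of Krt5. Both genes helped to cut the class, and the ratio was not repeated with pooled limits. No difference between the libraries is read from it. Over all cells, Krt18 had 0.971 for each of Krt8 (0.939 to 1.005) and 1.07 (0.982 to 1.16). Krt7 for each of Krt8 lay outside that pattern, at 0.246 (0.233 to 0.260) in Ctrl and 0.103 (0.0837 to 0.125) in Fgfr2 KO. Summed over the 8 genes, type I keratins had 1.98 UMIs (1.94 to 2.03) for each of type II in Ctrl and 2.39 (2.25 to 2.54) in Fgfr2 KO.

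Krt7, Krt19, Krt17 and Krt15 did not make the classes, but across cells Krt7 and Krt19 went with the luminal pair and Krt17 with the basal pair, so their levels in a class also move with its limits, which differed between the libraries. The ratios of Krt7, Krt19 and Krt17 were therefore repeated with 1 pair of limits from the reference cells of both libraries (3.43 and 4.79 UMIs per 10000), which left 10, 10 and 18 Fgfr2 KO cells with the basal pair only, both pairs and the luminal pair only. Krt7 lay highest in Ctrl cells with the luminal pair only (614.5 CPM, 576.6 to 654.4), lower with both pairs (372.4 CPM, 345.2 to 401.2) and at 60.7 CPM (38.5 to 91.1) with the basal pair only, against 27.6 CPM in the reference. In Fgfr2 KO the same classes had 162.4 CPM (125.1 to 207.4), 144.1 CPM (106.2 to 191.0) and 10.2 CPM (1 UMI). The log2 ratio between the libraries was -1.92 (-2.31 to -1.55) in cells with the luminal pair only and, in cells with both pairs, -1.37 (-1.82 to -0.95). In the latter, 1 Fgfr2 KO cell gave 60.4% of the Krt7 UMIs, and without the highest cell of each library the ratio was -2.23. With pooled limits Krt7 had -1.54 (-1.85 to -1.24) with the luminal pair only and -2.55 (-3.55 to -1.70) with both pairs. With the basal pair only, the interval of the ratio reached above 0 (-2.58, -7.94 to 0.04).

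Krt19 differed widely between the classes, which is a description, since it went with the luminal pair that helped to cut them. In Ctrl it had 2822 CPM (2740.1 to 2906) with the luminal pair only, 393.4 CPM (365.4 to 423.0) with both pairs and 163.7 CPM (125.5 to 209.9) with the basal pair only, the last of which equals the reference (163.7 CPM, 132.4 to 200.1). In Fgfr2 KO it had 1469 CPM (1352 to 1594), 525.3 CPM (450.3 to 609.1) and 40.7 CPM (11.1 to 104.1). It was therefore lower in Fgfr2 KO cells with the luminal pair only (log2 ratio -0.94, -1.07 to -0.82, and -1.22 without the immune-like and fibroblast-like cells of that class) and slightly higher in those with both pairs (0.42, 0.17 to 0.66). The latter was 0.13 (-0.18 to 0.43) without the highest cell of each library and -0.09 (-0.48 to 0.28) with pooled limits, so that it has no stable direction, while the ratio with the luminal pair only was -0.98 (-1.10 to -0.86) with them.

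Krt17 followed the basal pair. In Ctrl it had 1294 CPM (1182 to 1414) with the basal pair only, 1327 CPM (1275 to 1380.1) with both pairs and 150.8 CPM (132.3 to 171.2) with the luminal pair only. In Fgfr2 KO it had 559.0 CPM (421.1 to 727.6), 1327 CPM (1206 to 1456) and 78.7 CPM (53.4 to 111.6). Cells with the basal pair only held less Krt17 in Fgfr2 KO, at a log2 ratio of -1.21 (-1.64 to -0.81), and at -0.52 (-0.86 to -0.19) with pooled limits. Only 7 Fgfr2 KO cells stand behind the former ratio, and 1 of them held 45.5% of the Krt17 UMIs. In cells with both pairs the ratio was 0.00 (-0.15 to 0.15), was 0.65 (0.49 to 0.80) with pooled limits and was -0.53 (-0.72 to -0.35) without the doublet called by Scrublet. Among the 7 keratins compared in cells with the basal pair only, Krt7, Krt17 and Krt19 had ratios past 2-fold on the lower side, as had 16.4% of 2937 genes, and 0 on the higher side (5.65% of genes). Of these, Krt7 rests on 1 UMI in Fgfr2 KO, and Krt19 lay at or under the level of the reference cells in both libraries (163.7 CPM in Ctrl, 79.5 CPM in Fgfr2 KO).

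Krt15 went its own way. In Ctrl it had 34.3 CPM (18.3 to 58.7) with the basal pair only, 33.9 CPM (26.1 to 43.4) with both pairs and 15.1 CPM (9.70 to 22.5) with the luminal pair only. In Fgfr2 KO it had 0 UMIs in the 7 cells with the basal pair only (up to 37.5 CPM by the interval), 1 UMI with both pairs and 50.7 CPM (31.0 to 78.4) with the luminal pair only. There, 13 of its 20 UMIs came from 1 cell, and 6 of the 15 cells had at least 1. In cells with both pairs Krt7 and Krt15 were the 2 of 8 keratins with ratios past 2-fold on the lower side, as had 10% of 7990 genes, and 0 lay past it on the higher side (4.02%). The ratio of Krt15 there, with 63 UMIs in Ctrl, had a wide interval (-3.50, -8.82 to -0.97). With the luminal pair only, Krt7 was the 1 of 8 that was lower (9.86% of 7598 genes) and Krt15 the 1 that was higher (5.16%). In Ctrl 1 cell of that class held 9 of the 24 Krt15 UMIs. The ratio of Krt15 without the highest cell of each library was not computed by class.

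Krt8 and Krt18 made the classes, so their levels in them are a description. With the luminal pair only, Krt8 had 2823 CPM (2741 to 2907) in Ctrl and 1685 CPM (1559 to 1818) in Fgfr2 KO, and Krt18 had 2875 CPM (2792 to 2959) and 1928 CPM (1794 to 2070.3). With both pairs, Krt8 had 1242 CPM (1191 to 1293) and 1258 CPM (1140.1 to 1384), and Krt18 had 1101 CPM (1053 to 1149) and 1165 CPM (1052 to 1286). The limits that cut the classes used these genes and differed between the libraries, so nothing is read from where the difference lies.

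**Figure D4:**
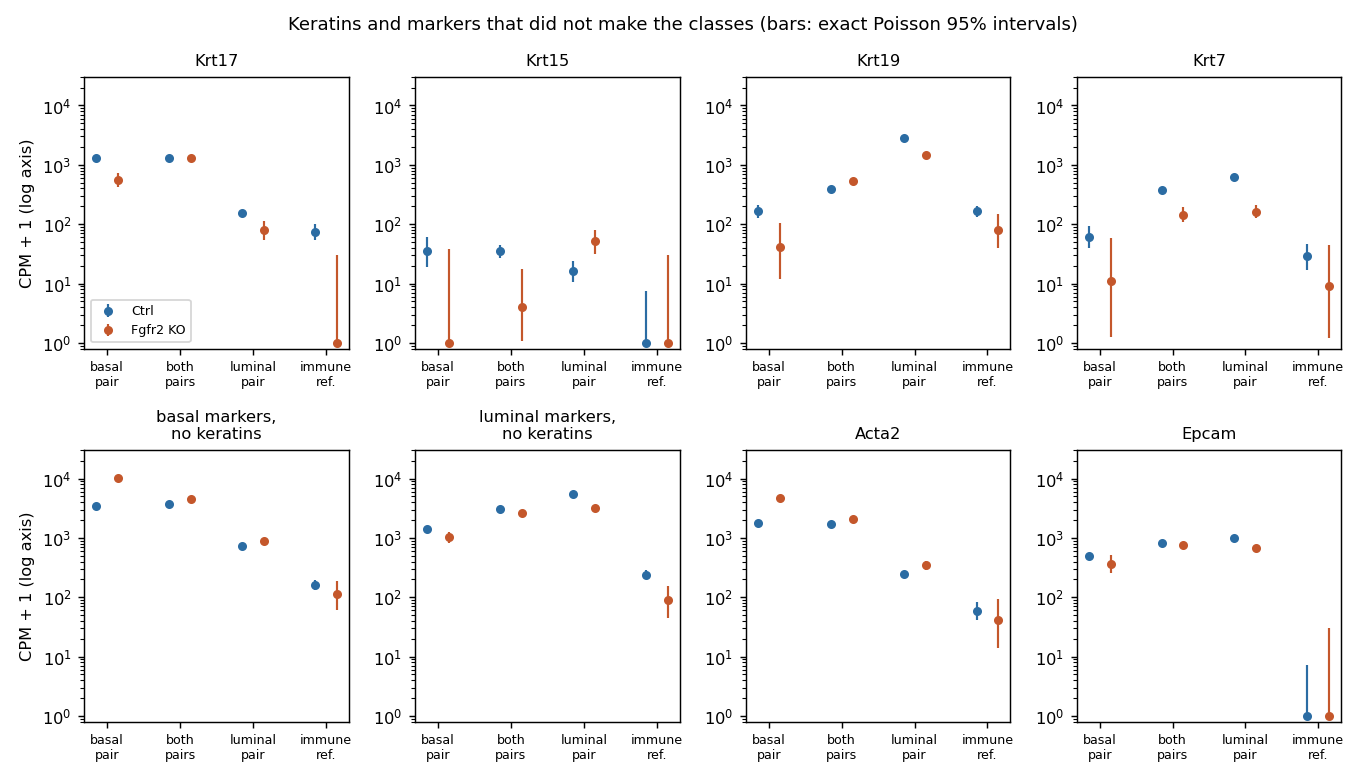
CPM + 1 on a log axis for the 4 keratins and the markers that did not make the classes, in cells with the basal pair only, both pairs or the luminal pair only and in reference immune cells, with exact Poisson 95% intervals (blue Ctrl, orange Fgfr2 KO). Krt19 in Ctrl drops from 2822 CPM with the luminal pair only to 393.4 CPM with both pairs, while Epcam goes from 979.9 to 806.8 CPM; Epcam is 0 in the reference by its definition.

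Markers outside the keratins were read in the same classes. The 12 basal markers without keratins, led by Acta2 (smooth muscle actin), Tagln (transgelin) and Tpm2 (a tropomyosin), summed in Ctrl to 3412 CPM (3228 to 3603) with the basal pair only, 3704 CPM (3617 to 3792) with both pairs, 726.2 CPM (684.9 to 769.4) with the luminal pair only and 162.0 CPM in the reference. The 16 luminal markers without keratins, led by Epcam (an adhesion molecule), Cldn4 (a claudin of tight junctions) and Spint2 (a protease inhibitor), summed to 1397 CPM (1280.4 to 1521), 3108 CPM (3028 to 3189), 5483 CPM (5368 to 5599) and 239.5 CPM. In Ctrl, cells with both pairs thus held basal markers at about the level of cells with the basal pair only, together with a luminal list between those of the other classes. The same order of the luminal list was seen in Fgfr2 KO, at 1016 CPM (826.9 to 1236), 2590.2 CPM (2420.3 to 2769) and 3159 CPM (2986 to 3339). The basal list of Fgfr2 KO had 10224 CPM (9602 to 10876) with the basal pair only, 4439 CPM (4216 to 4671) with both pairs and 880.4 CPM (790.2 to 978.1) with the luminal pair only. With the limits of that library alone, the cells with both pairs there thus lay well under the 7 cells with the basal pair only. Acta2 had 1814 CPM (1681 to 1955) in Ctrl and 4757 CPM (4335 to 5208) in Fgfr2 KO with the basal pair only, where Krt5 and Krt14 had log2 ratios of 0.30 and 0.41. Only 7 Fgfr2 KO cells stand behind these values of the basal class. The marker lists and Acta2 were not repeated with pooled limits, which put 10 Fgfr2 KO cells in that class. Donor basal cells carried GFP by design, and cells with at least 10 GFP UMIs numbered 5 in Ctrl (1 with the basal pair only, 1 with both, 3 with the luminal pair only) and 8 in Fgfr2 KO (0, 5 and 3).

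Across cells the keratins formed a basal and a luminal group, with only weak values for Krt15. On log2(UMIs per 10000 + 1) over 195 Ctrl and 63 Fgfr2 KO cells, Pearson's r was 0.84 and 0.84 for Krt8 with Krt18, 0.73 and 0.77 for Krt5 with Krt14, and 0.78 and 0.68 for Krt14 with Krt17. Krt19 with Krt18 had 0.72 and 0.77, and Krt7 with Krt8 had 0.69 and 0.70. In the 162 and 38 cells with a pair above background, Krt14 with Krt8 had -0.48 and -0.65. Krt15 had values from -0.24 to 0.11 with the other keratins in those Ctrl cells. In those of Fgfr2 KO it had values from -0.33 (Krt14) to -0.21 (Krt5) with the basal keratins and from 0.17 (Krt8) to 0.25 (Krt19) with the luminal ones, where 1 cell held most of its UMIs. These are descriptions, since the cells of a library share its free RNA, the classes were cut from the same counts and depth enters: Krt8 had an r of 0.43 and 0.57 with the UMIs per cell. Of 9239 other genes, those most like the basal pair (mean r of both libraries) included Col9a3 (a collagen chain, 0.75), Tpm2 (0.72), Lmo1 (a LIM-domain cofactor, 0.71) and Acta2 (0.70). Those most like the luminal pair were the claudins Cldn3 (0.76), Cldn4 (0.74) and Cldn7 (0.72), Epcam (0.72) and Cd24a (a surface glycoprotein used to sort mammary cells, 0.69).

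**Figure D5:**
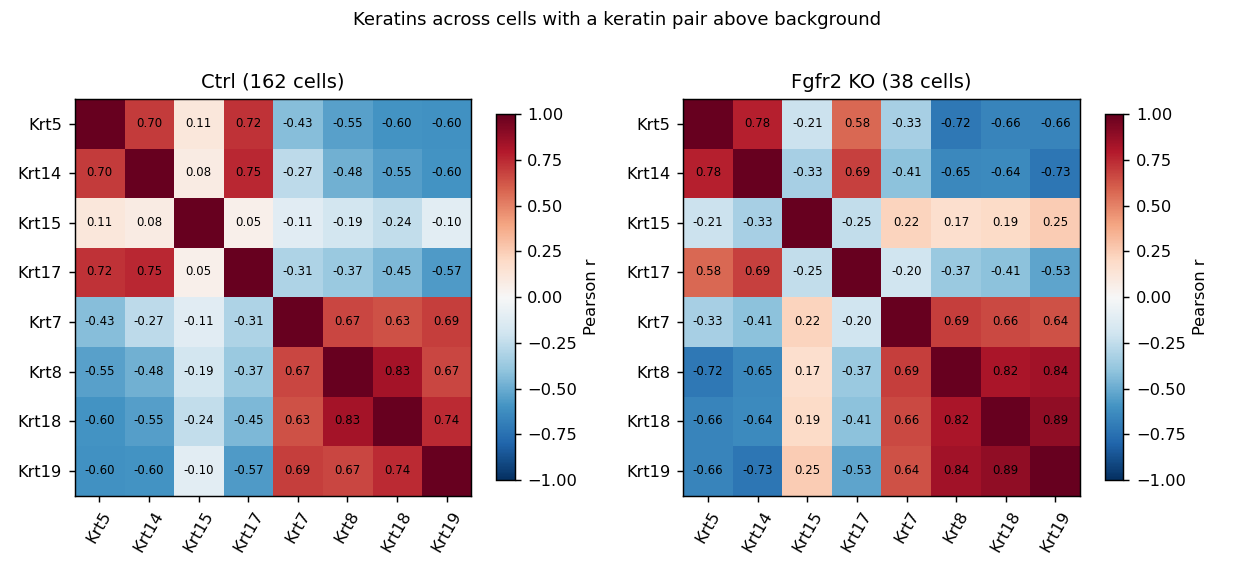
Pearson's r between the 8 keratins over cells with a keratin pair above background, on log2(UMIs per 10000 + 1), for 162 Ctrl and 38 Fgfr2 KO cells. Red blocks join Krt5, Krt14 and Krt17 and join the 4 luminal keratins, blue lies between the blocks, and Krt15 is paler, from -0.24 to 0.11 in Ctrl and from -0.33 to 0.25 in Fgfr2 KO.

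The table held 43 further keratin rows, of which 22 had no UMI in these cells and 7 had at least 20 UMIs. Krt6a and Krt16, which are induced in wounded skin, had 35.6 and 34.4 CPM in Ctrl and 22.4 and 12.2 CPM in Fgfr2 KO, log2 ratios of -0.67 (-1.39 to -0.02) and -1.49 (-2.48 to -0.65). Krt10, of differentiated skin, had 26.1 and 21.4 CPM, and Krt4, of stratified mucosa, had 19.0 and 33.6 CPM. Krt79 (48 and 5 UMIs), Krt23 (42 and 5) and Krt42 (30 and 2) were sparse. Counts of some keratins may be uncertain because their sequences overlap. Whether the shared parts lie at the counted transcript end was not checked. Of the 50-base windows of the transcripts of Krt14, 13.9% occurred in another gene, mostly Krt16, and of those of Krt8, 26.9% occurred in the pseudogene Krt8-ps. For Krt5 the share was 8.52% (mostly Krt6a) and for Krt17 it was 3.99% (mostly Krt14), while Krt7 (0.296%), Krt18 (0.720%), Krt15 (0.640%) and Krt19 (0%) shared few windows or none.

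Genes of the structures that hold keratin filaments were read from lists over all cells with no Ptprc UMI, of which 174 of 195 (Ctrl) and 39 of 63 (Fgfr2 KO) held an Epcam UMI. Of 10 desmosome genes, 8 were compared and 0 passed 2-fold (11.4% of all genes did), with a median log2 ratio of -0.45 against -0.07 for all genes, and of -0.42 without immune-like and fibroblast-like cells (-0.06 for all genes), where Dsc2 was 1 gene past 2-fold. Perp (a desmosomal membrane protein) had -0.51 (-0.75 to -0.26), Jup (plakoglobin) -0.49 (-0.77 to -0.22) and Dsp (desmoplakin, which anchors the filaments) -0.61 (-1.04 to -0.21). Of 8 hemidesmosome and linker genes, Evpl (26 and 2 UMIs, log2 ratio -1.60, -4.72 to 0.40) was the 1 past 2-fold, which is near the 7.34% of all genes that were lower, and the median was -0.57 (-0.38 without immune-like and fibroblast-like cells). Cd151 (a tetraspanin) had -0.53 (-0.83 to -0.25), Itga6 (an integrin chain of hemidesmosomes) -0.32 (-0.68 to 0.02) and Dst (dystonin) -0.03 (-0.38 to 0.30). Of 6 other intermediate filament genes, Lmnb2 (37 and 4 UMIs, -1.11, -3.06 to 0.37) was the 1 past 2-fold, beside 7.34% of all genes that were lower. The intervals of both Lmnb2 and Evpl included 0. Without immune-like and fibroblast-like cells, Des (desmin) was the 1 past 2-fold on the lower side in place of Lmnb2. With only cells that hold an Epcam UMI, 0 of 5 passed. Vim, the filament of mesenchymal cells, had 1104 and 1072 CPM with a log2 ratio of -0.04 (-0.14 to 0.05), and Lmna had -0.08 (-0.21 to 0.06).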

How the data were processed

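The deposited table holds raw UMI counts per gene and cell. They were made by the authors in Cell Ranger, whose aggregation step merged the libraries and may thin reads to a like depth. The study's methods and the submitters' processing notes (Cell Ranger 2.1.1, mm10) give different versions of that tool. The study removed immune cells by CD45 without stating a threshold and kept fewer cells than the Ptprc rule used here, so its cells cannot be matched.

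Cells were assigned to libraries by column prefix. CPM is a gene's UMIs over a set of cells per 1000000 UMIs of that set. Intervals are exact 95% intervals: Poisson for CPM, conditional binomial for ratios and Clopper-Pearson for shares. Genes with at least 20 UMIs were compared, a difference of at least 2-fold was counted, and the floor was 3 counts over the group. Scrublet was run in scanpy 1.11.5 (Python 3.11.15). The interval step was tested on simulated data. The members, gene lists and limits were chosen with earlier results of these data known. Named genes were the 8 keratins, other keratins with at least 20 UMIs, up to 3 leading genes per list and the 5 genes most like each pair. Evpl, Lmnb2, Dsc2 and Des were named after their values were seen. One gene that the rule names is not reported here. Alternatives changed the cells kept, the background limit, the scaling and the weights. Gene positions came from GENCODE M21, which uses the same build.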

Additional observations from a re-analysis of the deposited data

How the results depend on the processing

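No paired analysis was possible because each group had 1 library and no replicate number. Of the ratios between libraries, that of the luminal pair stayed below 0 in 9 of 9 alternatives and that of Krt7 did too. The luminal pair (-0.48) had -0.29 with no Ptprc filter, -0.34 with only cells that hold an Epcam UMI, -0.41 with median-of-ratios scaling, -0.67 with each cell weighted the same and -0.61 without the cell highest in the pair. The basal pair (-0.01) had no stable sign: -0.12 with no Ptprc filter, 0.13 without immune-like and fibroblast-like cells, 0.13 with only Epcam-positive cells, -0.28 with equal weights and -0.15 without its highest cell. Without the highest cell of each gene, 2 keratins passed 2-fold in place of 1. The share of cells with both pairs in Ctrl (39.5%) was 46.3% without immune-like and fibroblast-like cells, 43.7% with only Epcam-positive cells, 30.6% with no Ptprc filter, 32.3% with the highest reference cell as the limit, 87.2% with at least 1 UMI of each pair and 32.2% after thinning. In Fgfr2 KO (25.4%) it was 39.0% without immune-like and fibroblast-like cells, 38.5% with only Epcam-positive cells, 57.1% with at least 1 UMI, 14.3% after thinning, 15.9% with the highest reference cell as the limit, 18.6% with no Ptprc filter and 17.5% with at least 10 UMIs of each pair. Pooling the reference cells of both libraries, an alternative added after the data were seen, as were the alternatives by class, gave 42.1% and 15.9%. The thinned shares also used pooled reference cells, so they do not show the effect of thinning alone. With each cell weighted the same, Krt17 in cells with the luminal pair only turned from -0.94 to 0.0245, and 1 cell held 54.8% of its Fgfr2 KO UMIs there. With no minimum of UMIs, 18.8% of all genes passed 2-fold in place of 11.4%. With pooled limits Krt19 in cells with both pairs turned from 0.42 to -0.0915. The causes of these shifts were not tested. Depth limits Krt15, Krt7 in cells with the basal pair only and all classes of the Fgfr2 KO library, the smallest of which had 7 cells.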
